A study of Mus musculus with 9 samples.

Results

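The 6 genes described here, Pou4f1, Nr4a2, Irx2, Isl1, Etv1 and Nhlh2, encode transcription factors listed for habenular neurons. That label is not a finding of these libraries. Isl1 did not vary with the others here, and Etv1 and Nhlh2 did so only in part. The 6 genes were followed by name, library by library, among the 18956 gene symbols of a read count table. All 6 were among the 18194 symbols that passed the filter on low counts. They were selected on their counts in these same 9 libraries, in all 3 comparisons between groups, so their own values are given as a description. No p-value is printed for a single member, and the numbers of members past a threshold are given as description only. All mice were of the BALB/c strain, and the tissue was labelled as aPVT, the anterior part of the paraventricular nucleus in the dorsal midline thalamus, which lies close to the habenula. The first group had passed through 5 days of social defeat (smSDS), in which a mouse is exposed to an aggressive one, and was treated with (2S,6S)-HNK (here SHNK), one of the hydroxynorketamines into which ketamine is metabolised. The second was defeated in the same way and given saline (stressed saline), and the third was not defeated and was given saline (non-stressed saline). Each group held 3 libraries. The labels give no age, dose or time of sampling and do not say whether libraries came from separate or pooled animals, so p-values measure only the spread between these libraries.

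The habenula is a small paired nucleus above the thalamus. Its medial division holds cholinergic and peptidergic neurons that project to the interpeduncular nucleus, and its lateral division projects to the monoamine nuclei of the midbrain. In mouse, Pou4f1 (also called Brn3a), a POU homeodomain factor, is needed for the mature gene expression programme of medial habenular neurons.

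Total counts ran from 32307869 to 51569143 per library. Markers of aPVT and midline thalamic neurons were present in all 9 libraries: the 12 of 12 listed genes, among them Calb2 (calretinin), summed to 2705 to 3050 CPM (counts scaled to library size) in SHNK, 2566 to 3198 CPM in stressed saline and 2815 to 3197 CPM in non-stressed saline. Transcripts typical of the medial habenula were present as well. The 11 measured of 15 listed medial habenula genes, such as Tac2 (neurokinin B), Chrna3 (a nicotinic receptor subunit) and Gpr151 (an orphan receptor), summed to 165 to 188 CPM in SHNK, 356 to 907 CPM in stressed saline and 175 to 277 CPM in non-stressed saline. In SHNK most of this sum was Slc17a7 (mean 76.2 CPM), Gpr151 (31.1), Il18 (29.4) and Tac1 (28.0). Tac2 and Chrna3 averaged only 0.508 and 1.42 CPM there. The other 4 listed genes (Chrna5, Chrnb3, Chrnb4 and Slc18a3) were not analysed here. In bulk RNA, fewer cells of a type and less RNA per cell cannot be told apart.

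The 250 bases before the transcription start are shown for the 3 members with the largest log2 fold changes between SHNK and stressed saline and for Isl1, whose ranges overlapped in each comparison, since these windows differ in base composition and in short motifs. Sequences are those of RefSeq on GRCm38.p6, 5′ to 3′ on the strand of the gene. Capitals mark the E-box CAGCTG, the type of site that NHLH factors are known to bind, and TGACG, the core of the cAMP response element, or its reverse complement CGTCA.
Pou4f1, chr14:104468000-104468249 (minus strand): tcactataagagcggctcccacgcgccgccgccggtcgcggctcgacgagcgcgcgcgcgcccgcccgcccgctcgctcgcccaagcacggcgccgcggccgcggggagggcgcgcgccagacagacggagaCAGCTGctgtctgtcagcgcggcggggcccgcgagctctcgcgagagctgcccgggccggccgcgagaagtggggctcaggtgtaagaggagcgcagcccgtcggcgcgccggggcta
Nr4a2, chr2:57124004-57124253 (minus strand): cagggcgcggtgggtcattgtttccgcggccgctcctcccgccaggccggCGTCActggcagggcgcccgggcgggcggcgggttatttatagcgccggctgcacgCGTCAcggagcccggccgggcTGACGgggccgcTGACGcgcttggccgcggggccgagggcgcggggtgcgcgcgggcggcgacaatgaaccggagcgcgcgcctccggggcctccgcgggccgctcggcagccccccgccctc
Irx2, chr13:72628570-72628819 (plus strand): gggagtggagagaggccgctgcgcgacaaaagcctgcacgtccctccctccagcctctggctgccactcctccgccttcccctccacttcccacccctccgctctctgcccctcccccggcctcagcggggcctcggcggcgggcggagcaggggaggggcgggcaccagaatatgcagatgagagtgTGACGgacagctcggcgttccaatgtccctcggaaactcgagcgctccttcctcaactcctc
Isl1, chr13:116309689-116309938 (minus strand): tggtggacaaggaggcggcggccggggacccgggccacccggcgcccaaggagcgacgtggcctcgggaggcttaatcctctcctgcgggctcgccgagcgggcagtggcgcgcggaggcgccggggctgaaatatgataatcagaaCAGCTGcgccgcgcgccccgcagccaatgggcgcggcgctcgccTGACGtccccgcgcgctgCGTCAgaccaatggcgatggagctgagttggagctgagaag

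Over the whole window of 300 bases, which also takes in the first 50 bases of the transcript, GC content was 78.3% for Pou4f1, 81.7% for Nr4a2, 69.0% for Irx2 and 69.0% for Isl1. Etv1 had 48.7% at one annotated start and 44.0% at the other, and Nhlh2 had 43.3%. The median over all 32851 RefSeq mouse promoter windows was 52.7%. The Pou4f1 window held 57 CpG dinucleotides and the Nr4a2 window 52, against a median of 7 in all windows, while the Nhlh2 window held 2. With both strands searched, TGACG occurred 4 times in the Nr4a2 window, 2 times in that of Isl1, 1 time in that of Irx2 and not in the windows of Pou4f1, Etv1 or Nhlh2. It was found in 20.8% of all windows. CAGCTG occurred 1 time each in the windows of Pou4f1, Isl1 and Nhlh2, and in 16.3% of all windows. No member window held the full cAMP response element TGACGTCA (1.79% of all windows, and itself a match to TGACG), the NR4A monomer element AAAGGTCA (1.51%), the homeodomain core TAATTA (5.29%) or the ETS site CCGGAAGT (3.89%). These are letter matches and carry no measure of binding.

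Pou4f1 (ENSMUSG00000048349.9, chr14:104461676-104467999 on the minus strand of GRCm38) was almost unread in SHNK. Its counts were 4, 2 and 3 in the SHNK libraries (replicates 1, 2 and 3), 129, 667 and 231 in stressed saline and 32, 15 and 89 in non-stressed saline. In CPM scaled by the trimmed mean of M values (TMM) these were 0.0841, 0.0398 and 0.0815 in SHNK, 2.74, 14.3 and 6.50 in stressed saline, and 0.701, 0.470 and 2.18 in non-stressed saline. The 3 groups did not overlap: all SHNK libraries lay below all others, and all stressed saline libraries lay above all others. The fitted log2 fold change was 2.79 ± 0.56 (SE) for stressed against non-stressed saline, -6.81 ± 0.79 for SHNK against stressed saline and -4.02 ± 0.88 for SHNK against non-stressed saline. The SHNK counts were few, so the ratio of summed counts is given as well. Scaled to library size, 9 reads in SHNK against 1027 in stressed saline made the SHNK level 119-fold lower (exact 95% interval 62.3 to 261). Set against the 136 reads of non-stressed saline it was 17.2-fold lower (8.80 to 38.4). These intervals pool the reads of a group and cover counting error only. They leave out the spread between libraries and the choice of the gene on these same counts. Of the 1027 reads, 667 were in stressed saline replicate 2. Single libraries weighed on these values. Without stressed saline replicate 2 the log2 fold change was 2.02 for stressed against non-stressed saline and -6.04 for SHNK against stressed saline, and without non-stressed saline replicate 3 it was 3.71 for stressed against non-stressed saline and -3.10 for SHNK against non-stressed saline.

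Nr4a2 (ENSMUSG00000026826.13, chr2:57106830-57124003, minus strand), known as Nurr1, is an orphan nuclear receptor best known for its role in midbrain dopamine neurons and, like its relatives Nr4a1 and Nr4a3, inducible by activity in many cells. It had 2.21, 1.61 and 0.896 CPM in SHNK, 20.6, 75.2 and 39.3 CPM in stressed saline, and 7.43, 4.82 and 10.9 CPM in non-stressed saline. The groups again did not overlap, in the same order as for Pou4f1. Group means were 1.57 ± 0.657 CPM in SHNK, 45.0 ± 27.7 CPM in stressed saline and 7.71 ± 3.03 CPM in non-stressed saline (SD, n = 3 each). The log2 fold change was 2.54 ± 0.40 for stressed against non-stressed saline, -4.81 ± 0.46 for SHNK against stressed saline and -2.27 ± 0.45 for SHNK against non-stressed saline. Without stressed saline replicate 2, which had the most Nr4a2, the first 2 of these were 1.95 and -4.22.

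Irx2 (ENSMUSG00000001504.10, chr13:72628820-72634198, plus strand) belongs to the Iroquois homeobox family, whose members act in regional patterning of the nervous system. Its levels were 4.06, 3.62 and 3.94 CPM in SHNK, 12.4, 30.9 and 19.3 CPM in stressed saline, and 7.30, 6.86 and 8.22 CPM in non-stressed saline. The SHNK and non-stressed saline libraries kept close together within their groups, and stressed saline replicates were spread widely. None of the 3 ranges met another. The log2 fold change was 1.48 ± 0.24 for stressed against non-stressed saline, -2.43 ± 0.25 for SHNK against stressed saline and -0.95 ± 0.25 for SHNK against non-stressed saline.

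**Figure D1:**
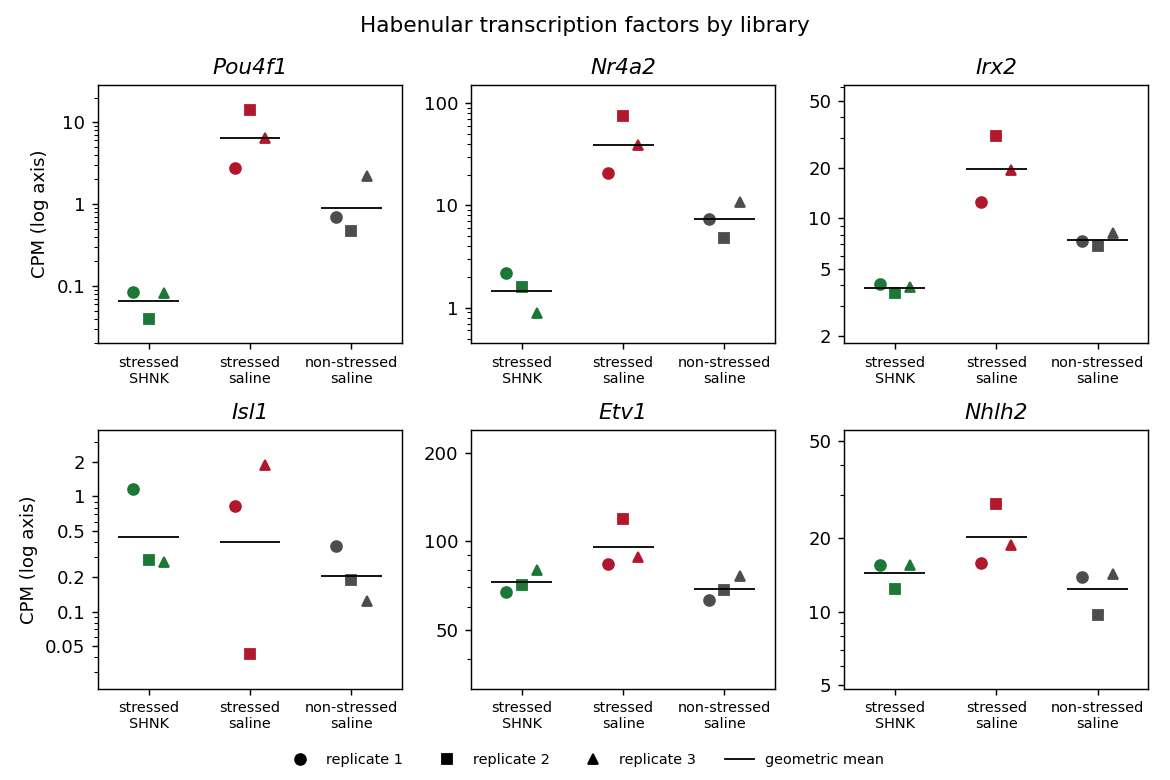
CPM (TMM-scaled, log axis) of each habenular transcription factor in the 9 libraries, with SHNK, stressed saline and non-stressed saline from left to right; symbols mark replicates and lines mark geometric means. Pou4f1, Nr4a2 and Irx2 form 3 separate ranges, Etv1 and Nhlh2 are raised in stressed saline by a smaller factor, and Isl1 spreads from 0.0428 to 1.89 CPM within stressed saline.

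Etv1 (ENSMUSG00000004151.17, chr12:38779380-38870484, plus strand), an ETS-family factor known for setting the terminal features of several neuron types, had the most reads of the 6. Its levels were 67.5, 71.2 and 80.2 CPM in SHNK, 84.0, 119 and 88.3 CPM in stressed saline, and 63.3, 68.6 and 76.2 CPM in non-stressed saline. All stressed saline libraries lay above the others, whereas the SHNK and non-stressed saline ranges overlapped in part. The log2 fold change was 0.49 ± 0.13 for stressed against non-stressed saline, -0.42 ± 0.13 for SHNK against stressed saline and 0.072 ± 0.13 for SHNK against non-stressed saline.

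Nhlh2 (ENSMUSG00000048540.8, chr3:102010076-102015492, plus strand) is a basic helix-loop-helix factor of differentiating neurons, whose loss in mouse leads to obesity and reduced fertility through the hypothalamus. It had 15.5, 12.4 and 15.6 CPM in SHNK, 15.8, 27.8 and 18.7 CPM in stressed saline, and 13.9, 9.71 and 14.4 CPM in non-stressed saline. The lowest stressed saline library stood only just above the highest SHNK library, and SHNK and non-stressed saline overlapped. The log2 fold change was 0.71 ± 0.20 for stressed against non-stressed saline, -0.52 ± 0.20 for SHNK against stressed saline and 0.19 ± 0.20 for SHNK against non-stressed saline.

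Isl1 (ENSMUSG00000042258.13, chr13:116298281-116309689, minus strand), a LIM homeodomain factor of motor neurons, striatal neurons and parts of the hypothalamus as well as the habenula, was close to the lower limit of the table and did not follow the others. Its counts were 55, 14 and 10 in SHNK, 39, 2 and 67 in stressed saline, and 17, 6 and 5 in non-stressed saline. These were 1.16, 0.278 and 0.272 CPM in SHNK, 0.828, 0.0428 and 1.89 CPM in stressed saline, and 0.373, 0.188 and 0.123 CPM in non-stressed saline. The 3 ranges overlapped, and the lowest value of all was in stressed saline replicate 2, the library in which the other 5 members were highest. The log2 fold change was 1.93 ± 0.88 for stressed against non-stressed saline, -0.64 ± 0.79 for SHNK against stressed saline and 1.30 ± 0.90 for SHNK against non-stressed saline. Single libraries decided its size and, in one comparison, its sign. Without stressed saline replicate 3 the first was 0.90 and the second 0.40, and without SHNK replicate 1 the second was -1.69 and the third 0.25. Without non-stressed saline replicate 1 the first was 2.53 and the third 1.90.

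Stressed against non-stressed saline sets defeated beside undefeated mice without the drug. All 6 members had a higher mean in stressed saline, with a median log2 fold change of 1.71 against -0.017 over all tested genes. By edgeR's quasi-likelihood test, adjusted over all tested genes, 3 of the 6 (Pou4f1, Nr4a2 and Irx2) were called higher. Of all tested genes 1.15% were called higher and 0.0165% lower. Unadjusted, 6 members had a p below 0.05, beside 1720 of the 18194 tested genes in either direction. The stressed saline range lay wholly above in 5 of 6 (not Isl1), beside 7.36% of all tested genes. This comparison took part in choosing the members, so nothing is read from these counts. The number of members called was 0 without non-stressed saline replicate 1, 1 without non-stressed saline replicate 2 and 5 without stressed saline replicate 1. It was 5 by DESeq2 and 1 by limma voom. Over all genes these settings called 50, 70, 289, 438 and 101 higher and 0, 1, 17, 34 and 1 lower, in that order.

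SHNK against stressed saline sets treated beside untreated defeated mice. It had the widest gaps for Pou4f1, Nr4a2 and Irx2, and all 6 members had a lower mean in SHNK. Their median log2 fold change was -1.53 against -0.0091 over all tested genes. The same 3 members were called lower, beside 3.96% of all tested genes called lower and 2.45% called higher. Unadjusted, 5 members had a p below 0.05, beside 4247 of the 18194 tested genes in either direction. Those 3 members were called under each of the 17 other settings, which include leaving out each of the 9 libraries. Over all genes these settings called from 129 (without SHNK replicate 3) to 1397 (limma voom) lower. The SHNK range lay wholly below in 5 of 6 members (not Isl1), beside 15.9% of all tested genes. This comparison shares its stressed saline libraries with the comparison above and also took part in choosing the members.

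SHNK against non-stressed saline sets defeated mice given SHNK beside mice that were never defeated. SHNK lay wholly below non-stressed saline for Pou4f1, Nr4a2 and Irx2, beside 11.5% of all tested genes. It overlapped non-stressed saline for Isl1, Etv1 and Nhlh2. Etv1 and Nhlh2 averaged 72.9 and 14.5 CPM in SHNK and 69.4 and 12.7 CPM in non-stressed saline. They did not share the low SHNK level of Pou4f1 (mean 0.0684 CPM). The median log2 fold change was -0.44 against -0.0049 over all tested genes. By edgeR 0 of 6 members were called, and the number called was 3 by DESeq2 and 0 by limma voom. Over all 18194 tested genes DESeq2 called 663 lower and 331 higher, and limma voom 1 lower and 0 higher. Unadjusted, 3 members had an edgeR p below 0.05, beside 3338 of the 18194 tested genes in either direction. Among all tested genes 0.0055% were called lower and 0.0% higher by edgeR. The number of members called was 2 without non-stressed saline replicate 2, and it was 1 without stressed saline replicate 1 and likewise 1 without stressed saline replicate 2. Over all genes these fits called 596 lower and 153 higher, 8 lower and 0 higher, and 7 lower and 1 higher, in that order.

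Fold changes and changes in level ranked the members differently. The mean level of Etv1 was 27.9 CPM higher in stressed than in non-stressed saline, a larger difference than the 13.4 CPM of Irx2 or the 6.72 CPM of Pou4f1, although its fold change was the smallest. The difference for Nr4a2 was 37.3 CPM and for Nhlh2 8.12 CPM. To compare levels between genes, counts were divided by the exonic length of each gene (GENCODE M21) and scaled to the same total in every library. This length joins all annotated exons of a gene, 13296 bases for Etv1 and 3282 to 5417 for the others. A shorter length for Etv1 would raise its level, so its place depends on this choice. On this length-scaled measure Nr4a2 had the highest mean of the 6 in stressed saline, 34.7 ± 21.9 (SD, n = 3), followed by Etv1 with 22.8 ± 4.90, Irx2 with 19.9 ± 9.16, Nhlh2 with 11.98 ± 3.77, Pou4f1 with 5.25 ± 4.03 and Isl1 with 0.711 ± 0.702. Each neighbouring pair in that order differed by less than the larger of its SDs, except for Pou4f1 and Nhlh2, and Isl1 and Pou4f1.

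In the other groups the order was another one. In SHNK the length-scaled level was highest for Etv1 (16.1 ± 0.873), followed by Nhlh2 (7.86 ± 1.11), Irx2 (3.46 ± 0.304), Nr4a2 (1.15 ± 0.522), Isl1 (0.431 ± 0.403) and Pou4f1 (0.0431 ± 0.0162). Pou4f1 and Isl1 were within an SD of each other there, and the remaining neighbours were farther apart than their SDs. In non-stressed saline Etv1 led with 15.9 ± 1.29. Nhlh2 (7.15 ± 1.62), Irx2 (6.93 ± 0.722) and Nr4a2 (5.81 ± 2.31) followed, with less than an SD between neighbours, and Pou4f1 (0.730 ± 0.602) and Isl1 (0.177 ± 0.107) came last, also within an SD of each other.

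**Figure D2:**
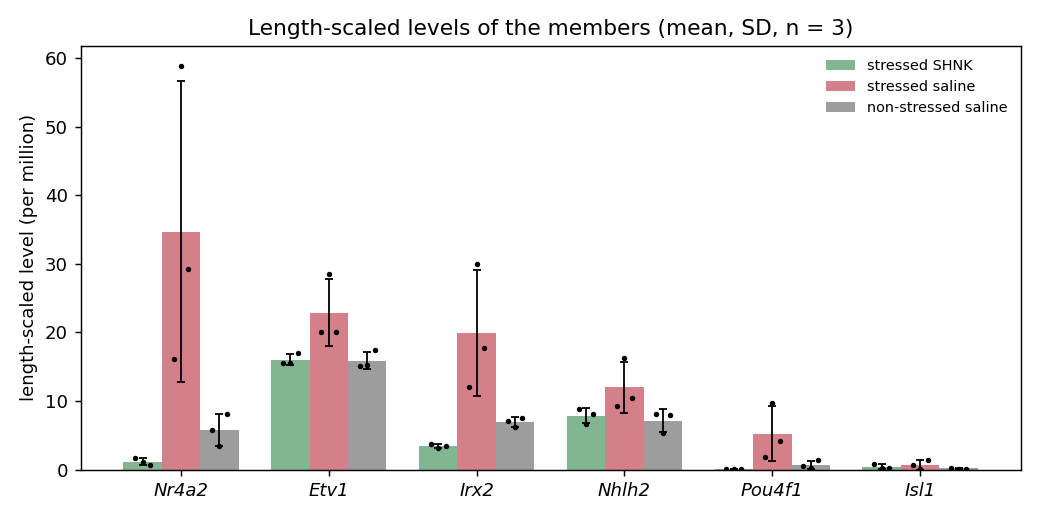
Length-scaled level (counts per exonic kilobase, scaled to the same total in every library, linear axis) of the members in SHNK, stressed saline and non-stressed saline; bars are means, whiskers SD (n = 3) and dots libraries. Etv1 averages 16.1 in SHNK, 22.8 in stressed saline and 15.9 in non-stressed saline, and Nr4a2 is the highest of the 6 in stressed saline only. All annotated exons count in the length (13296 bases for Etv1), and a shorter length would place Etv1 higher.

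Relatives of the members were taken by family. Of 17 listed relatives 9 were measured, and Pou4f2, Pou4f3, Irx4, Irx6, Isl2, Lhx1, Lhx5 and Nhlh1 were not analysed here. In stressed against non-stressed saline 1 of the 9 rose, 0 fell and 8 did not pass. The one that rose was Irx3, with 9.23, 19.0 and 11.1 CPM in stressed saline against 4.95, 3.66 and 7.63 CPM in non-stressed saline, a log2 fold change of 1.27 ± 0.27 (edgeR adjusted p = 0.0380). Its ranges did not overlap, but its adjusted p was 0.0557 to 0.232 in the fits without SHNK replicate 3, stressed saline replicates 2 and 3 and non-stressed saline replicates 1 and 2, each left out singly, and it passed under 4 of 8 other settings. Irx5 had 12.7, 20.5 and 14.3 CPM in stressed saline against 9.89, 10.9 and 10.3 CPM in non-stressed saline, a log2 fold change of 0.61 ± 0.18 that did not pass (adjusted p = 0.158).

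In SHNK against stressed saline 3 of the 9 relatives fell, all of the Iroquois family, 0 rose and 6 did not pass. Irx3 had 3.83, 3.46 and 3.10 CPM in SHNK and fell by a log2 fold change of -1.92 ± 0.28 (adjusted p = 0.00274). Irx5 had 7.04, 4.71 and 6.14 CPM in SHNK and fell by a log2 fold change of -1.41 ± 0.19 (adjusted p = 0.00117). Both passed whichever library was left out. Irx1, at 0.421, 0.398 and 0.326 CPM in SHNK against 0.552, 1.22 and 0.985 CPM in stressed saline, fell by a log2 fold change of -1.25 ± 0.35 (adjusted p = 0.0486), and passed in 1 of 9 fits that left out a library. Its adjusted p was 0.0515 to 0.194 in the other 8, and the one that kept the call was without stressed saline replicate 1. In SHNK against non-stressed saline 0 of 9 relatives passed by edgeR (3 with an unadjusted p below 0.05), the nearest being Irx5 with a log2 fold change of -0.80 ± 0.19 (adjusted p = 0.0835).

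The relatives of Nr4a2 did not pass by edgeR in any of the 3 comparisons. Nr4a1, an immediate early gene, had 9.27, 6.62 and 4.07 CPM in SHNK, 5.90, 6.32 and 5.66 CPM in stressed saline and 8.37, 5.92 and 8.56 CPM in non-stressed saline. Its log2 fold change was -0.36 ± 0.24 for stressed against non-stressed saline (adjusted p = 0.775) and 0.16 ± 0.24 for SHNK against stressed saline (adjusted p = 0.733). Nr4a3 ran from 0.932 to 3.21 CPM over all libraries, with ranges that overlapped in each comparison. Of the 19 measured immediate early genes, Dusp1, a MAP kinase phosphatase, fell and 0 rose in stressed against non-stressed saline (log2 fold change -0.63 ± 0.14, adjusted p = 0.0425). In SHNK against stressed saline Dusp1 (0.71 ± 0.14, adjusted p = 0.0118) and Jun (0.33 ± 0.084, adjusted p = 0.0350) rose and Arc fell (-0.82 ± 0.13, adjusted p = 0.00496). The first call of Dusp1 was lost in 7 of the 9 fits that left out a library (all but SHNK replicates 1 and 3; adjusted p 0.0502 to 0.164), its second without SHNK replicate 2, and that of Jun when any one of the 6 SHNK and stressed saline libraries was left out. Lhx2 and Lhx9, LIM homeodomain factors like Isl1, and Etv4 and Etv5, ETS factors like Etv1, did not pass in any comparison.

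**Figure D3:**
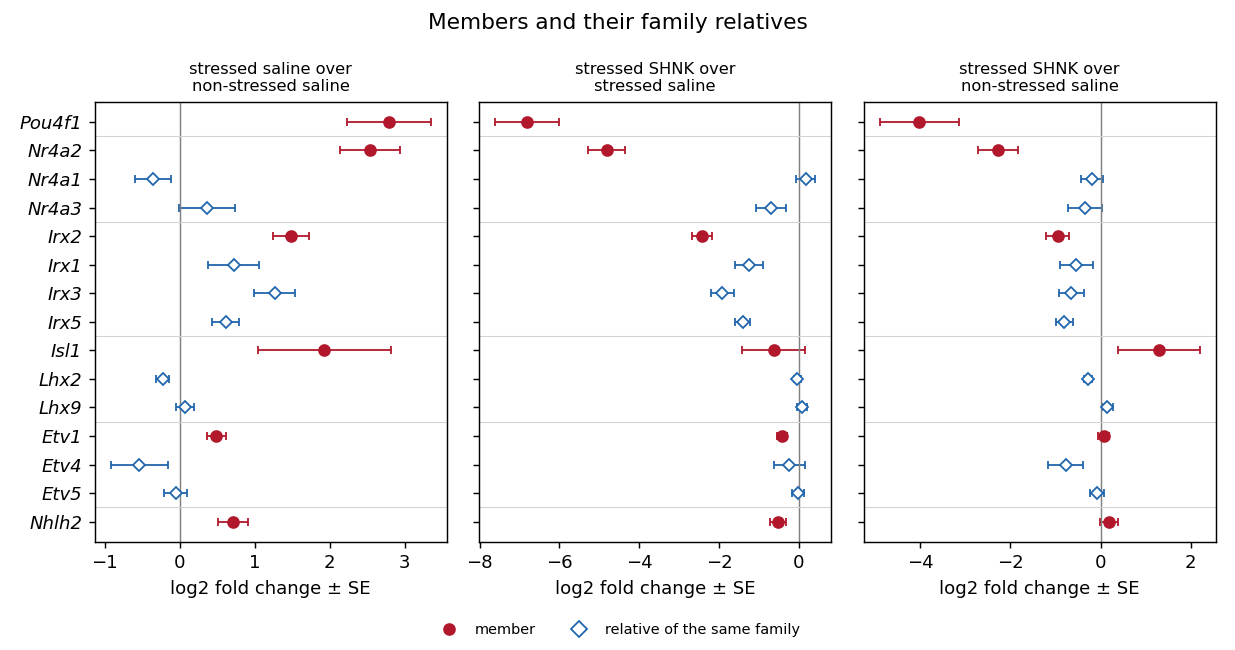
Log2 fold change with its SE for the members and their measured relatives in the 3 comparisons. Irx3 and Irx5 lie on the same side as Irx2 in each comparison, and in SHNK over stressed saline Nr4a1 is at 0.16 and Nr4a3 at -0.70, where Nr4a2 is at -4.81.

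Most members shared an order of libraries within stressed saline, and fewer did within SHNK. Within stressed saline, replicate 2 was highest for 5 of 6 members and replicate 1 lowest for 5, the exception being Isl1. Within non-stressed saline, replicate 3 was highest for 5 of 6, while within SHNK replicate 1 was highest for 4 and replicate 3 for 2, and the lowest was replicate 2 for 3 members, replicate 3 for 2 and replicate 1 for 1. In stressed saline, replicate 2 had 5.22 times the Pou4f1 of replicate 1, 3.65 times the Nr4a2, 2.49 times the Irx2, 1.76 times the Nhlh2 and 1.42 times the Etv1, but only 0.0517 times the Isl1. Medial habenula genes outside the 6 had ratios of the same kind, such as 4.81 for Chat (choline acetyltransferase), 4.02 for Tac2, 2.48 for Gpr151 and 1.57 for Tac1 (substance P), with the lowest at 0.935 for Il18. The summed medial habenula list was likewise lowest in replicate 1 (356 CPM) and highest in replicate 2 (907 CPM) of stressed saline, and highest in replicate 3 of non-stressed saline (277 CPM).

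Across all 9 libraries, Pearson's r of log2 CPM between the 5 members other than Isl1 ran from 0.640 to 0.981 over 10 pairs, and from 0.468 to 0.872 after the mean of each group was removed. The 5 pairs with Isl1 had r from -0.302 to -0.058, and from -0.890 to -0.332 within groups. These describe 9 libraries in 3 groups and share depth and tissue content. The r of Isl1 with the mean of all 6 members was 0.068, and 0.676 without stressed saline replicate 2, in which Isl1 had 2 reads.

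**Figure D4:**
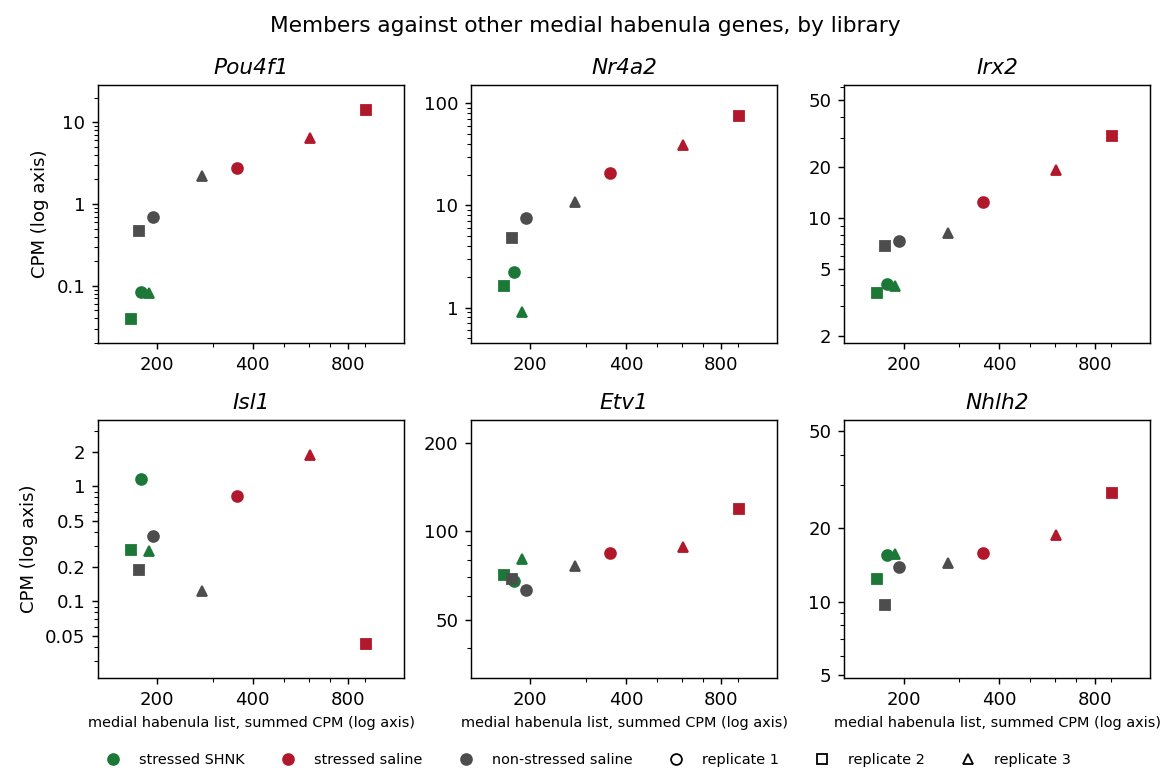
CPM of each member (log axis) against the summed CPM of 11 other medial habenula genes (log axis) in each library; colours mark groups and symbols mark replicates. Pou4f1, Nr4a2, Irx2 and Nhlh2 climb with the sum over the 6 saline libraries. Etv1 does so except that non-stressed saline replicate 2 lies above replicate 1, and Isl1 shows no such order. For Pou4f1, Nr4a2 and Irx2 the SHNK libraries lie lower at sums close to those of non-stressed saline replicates 1 and 2. In SHNK and in non-stressed saline the mean sum is mostly Slc17a7, Gpr151, Il18 and Tac1.

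The median of the medial habenula list had the sign of Pou4f1 in each comparison. In stressed against non-stressed saline 8 of its 11 measured genes rose, 0 fell and 3 did not pass, and the median log2 fold change was 1.97. Gng8, a G protein gamma subunit, averaged 23.7 CPM in stressed saline and 6.06 CPM in non-stressed saline (log2 fold change 1.97 ± 0.24, edgeR adjusted p = 0.00300). Gpr151 averaged 134 CPM in stressed saline and 42.1 CPM in non-stressed saline (1.67 ± 0.23, adjusted p = 0.00532). Htr5b, a serotonin receptor, and Nwd2 rose by log2 fold changes of 2.98 ± 0.48 and 2.65 ± 0.44 (adjusted p = 0.00970 for each). Both calls were lost without stressed saline replicate 2 or without non-stressed saline replicate 1, and that of Nwd2 without non-stressed saline replicate 2, with adjusted p between 0.0518 and 0.0611. Leaving out stressed saline replicate 2 left 2 that rose, as did leaving out non-stressed saline replicate 1, and leaving out non-stressed saline replicate 2 left 3.

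In SHNK against stressed saline 9 of the 11 fell and 0 rose, with a median log2 fold change of -2.46, and 7 to 9 fell when any one library was left out. Tac2 averaged 0.508 CPM in SHNK and 92.4 CPM in stressed saline (-7.44 ± 0.70, adjusted p = 0.000187), and Chrna3 averaged 1.42 CPM in SHNK and 54.0 CPM in stressed saline (-5.23 ± 0.53, adjusted p = 0.000210). Htr5b averaged 0.790 CPM in SHNK and 62.5 CPM in stressed saline, and Nwd2 1.29 CPM in SHNK and 54.7 CPM in stressed saline. In SHNK against non-stressed saline the median was -0.59 and 0 of 11 passed by edgeR, with 4 at an unadjusted p below 0.05, 4 called by DESeq2 and 0 by limma voom. The smallest adjusted p was 0.0686, and 4 passed without non-stressed saline replicate 2, 3 without stressed saline replicate 2, 2 without stressed saline replicate 1 and 1 without non-stressed saline replicate 1. These lists were drawn up with earlier results of these libraries known and are not independent evidence of a direction.

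Members differed in how their level compared with the sum of that list. In SHNK this sum came mostly from Slc17a7 (mean 76.2 CPM), Gpr151 (31.1), Il18 (29.4) and Tac1 (28.0). The same genes made up most of the mean sum in non-stressed saline too, at 75.7, 42.1, 26.5 and 23.7 CPM in that order, of 215 CPM. In stressed saline Slc17a7 averaged 107 CPM and Il18 25.9 CPM. Tac2 and Chrna3 added little to the SHNK sum (0.508 and 1.42 CPM), so a share of it does not compare a member with them. Nr4a2 amounted to 0.477% to 1.24% of the summed list in SHNK libraries, 5.78% to 8.29% in stressed saline and 2.75% to 3.93% in non-stressed saline. Pou4f1 amounted to 0.0241% to 0.0474% in SHNK, 0.768% to 1.57% in stressed saline and 0.268% to 0.789% in non-stressed saline. Both were thus a smaller share of the sum in every SHNK library than in any saline library. Irx2 was lower in SHNK too but by less, at 2.10% to 2.29% in SHNK, 3.18% to 3.48% in stressed saline and 2.97% to 3.92% in non-stressed saline. The share of Etv1 was 38.0% to 43.2% in SHNK, 13.2% to 23.6% in stressed saline and 27.6% to 39.2% in non-stressed saline. That of Nhlh2 was 7.52% to 8.74% in SHNK, 3.06% to 4.44% in stressed saline and 5.19% to 7.19% in non-stressed saline. Both shares were larger in SHNK than in stressed saline although both genes had a lower mean CPM in SHNK. The sum itself averaged 177 CPM in SHNK and 623 CPM in stressed saline, so any gene that fell less took a larger share. On this measure the SHNK range of Nhlh2 lay above that of non-stressed saline, and the ranges of Etv1 overlapped. These shares depend on which genes make up the sum. In SHNK against stressed saline the log2 fold change was -7.44 for Tac2 and -5.23 for Chrna3, with a list median of -2.46. It was -6.81 for Pou4f1 and -4.81 for Nr4a2.

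Genes most like the members were taken as those with the highest r of log2 CPM with the mean of the 6 members' standardised values, among 12549 candidates. Over the 9 libraries these were Sstr2 (a somatostatin receptor, r = 0.991), Nfam1 (0.988), Gpr151 (0.983), Pi16 (0.978), Gfra1 (a GDNF-family receptor, 0.976), Gng8 (0.976), Lrrc55 (0.974) and Kcng4 (a potassium channel subunit, 0.973). With group means removed they were Necab2 (a neuronal calcium-binding protein, 0.992), Epha8 (0.988), Nfam1 (0.985), Prkcq (0.978), Slc25a1 (0.977), Cacnb3 (0.974), Pde2a (0.972) and Dcaf10 (0.971). Nfam1 was the gene on both lists. As the highest of 12549 values over 9 libraries, these r are a description only. The mean includes Isl1, whose own r with it was 0.068 over the 9 libraries and -0.456 with group means removed.

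Transcription factors of neighbouring regions were set beside the members. Of 17 thalamic factors, all measured, 0 passed in stressed against non-stressed saline by edgeR (6 with an unadjusted p below 0.05; 1 fell by DESeq2 and 0 by limma voom). In SHNK against stressed saline Rora, a nuclear receptor, rose to 594 CPM in SHNK, against 441 CPM in stressed saline (log2 fold change 0.43 ± 0.094, adjusted p = 0.0183), and Hlf (0.41 ± 0.085, adjusted p = 0.0142) and Lef1 (0.39 ± 0.11, adjusted p = 0.0461) rose too. All 3 calls were lost without stressed saline replicate 2, SHNK replicate 2 or SHNK replicate 3, and that of Lef1 also without stressed saline replicate 1 or 3 or non-stressed saline replicate 1. Neurod1, on a list of hippocampal and cortical factors of which 6 of 10 were measured, rose in stressed against non-stressed saline (1.20 ± 0.25, adjusted p = 0.0275) and fell in SHNK against stressed saline (-1.48 ± 0.25, adjusted p = 0.00525). The first call was lost in 6 of 9 fits that left out a library (adjusted p = 0.0516 to 0.133), among them those without non-stressed saline replicate 1, 2 or 3. They also included those without stressed saline replicate 2 or 3 and SHNK replicate 3. Mef2c of the same list rose in SHNK against stressed saline (0.52 ± 0.12, adjusted p = 0.0183), a call lost without stressed saline replicate 2 or 3 or SHNK replicate 3.

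Of 7 measured among 21 hypothalamic and striatal factors, Ebf1 (-0.83 ± 0.19, adjusted p = 0.0215) and Bcl11b (-0.57 ± 0.15, adjusted p = 0.0416) fell in SHNK against stressed saline. Of 7 measured among 17 midbrain, pretectal and reticular factors, Otx2 (-0.65 ± 0.17, adjusted p = 0.0417) and Barhl2 (-0.85 ± 0.23, adjusted p = 0.0418) fell in the same comparison. These 4 calls were all lost without stressed saline replicate 2 and without SHNK replicate 2 or 3, with adjusted p up to 0.199. Those of Bcl11b and Barhl2 were also lost without stressed saline replicate 1, that of Otx2 without stressed saline replicate 3 or SHNK replicate 1, and those of Otx2 and Barhl2 without non-stressed saline replicate 1. No factor of either list passed in stressed against non-stressed saline by edgeR, where 1 of each list had an unadjusted p below 0.05. Of 7 lateral habenula genes, Gpr151 was the only one to rise in stressed against non-stressed saline, and in SHNK against stressed saline Htr2c rose (0.57 ± 0.10, adjusted p = 0.00743) while Pbx3 (-0.93 ± 0.23, adjusted p = 0.0282) and Gpr151 (-2.11 ± 0.23, adjusted p = 0.000425) fell. The call of Pbx3 was lost without stressed saline replicate 2 or 3 or any 1 SHNK library. In SHNK against non-stressed saline, 0 of the 145 measured genes on any list, with the relatives and the immediate early genes included and the members left out, passed by edgeR, with 33 at an unadjusted p below 0.05, 3 that rose and 13 that fell by DESeq2 and 0 by limma voom.

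Several markers of ependymal cells and some of astrocytes also differed between groups. Of 12 genes of ependymal cells, which line the ventricles, 8 rose in stressed against non-stressed saline and 6 fell in SHNK against stressed saline, and their summed level was 115 to 174 CPM in SHNK, 195 to 297 CPM in stressed saline and 108 to 127 CPM in non-stressed saline. The first count was 3 without stressed saline replicate 2, while leaving out non-stressed saline replicate 1 gave 2 and leaving out replicate 2 of that group gave 4. The second was 2 without stressed saline replicate 2, 1 without SHNK replicate 2, 0 without SHNK replicate 3 and 10 without SHNK replicate 1. Of 10 astrocyte genes, Aqp4 (0.70 ± 0.13, adjusted p = 0.0161) and Gfap (1.51 ± 0.29, adjusted p = 0.0181) rose in stressed against non-stressed saline, and 6 fell in SHNK against stressed saline. Both rises were lost when replicate 2 of either saline group was left out, that of Gfap without non-stressed saline replicate 1 (adjusted p = 0.0875), and the falls numbered 3 without SHNK replicate 2 and likewise without SHNK replicate 3. The astrocyte sum averaged 3703 CPM in SHNK (range 3528 to 3798), 4450 CPM in stressed saline (3956 to 5122) and 4619 CPM in non-stressed saline (4527 to 4704). Within stressed saline it was lowest in replicate 2 (3956 CPM), where 5 members were highest, whereas the ependymal sum was highest there (297 CPM). Their part in the levels of Pou4f1, Nr4a2 and Irx2 was not tested.

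Of 9 measured among 10 choroid plexus genes, Clic6 (-0.70 ± 0.17, adjusted p = 0.0276) and Otx2 fell in SHNK against stressed saline. The call of Clic6 was lost without stressed saline replicate 1 or SHNK replicate 2 or 3, with adjusted p between 0.0742 and 0.132. The 10 oligodendrocyte genes, the 10 microglial genes and the 3 measured among 12 pineal genes gave no call by edgeR in any comparison. The pineal markers Aanat, Asmt, Tph1 and Crx were not analysed here. Of the 12 aPVT genes 0 passed in stressed against non-stressed saline, where 1 had an unadjusted p below 0.05, and in SHNK against stressed saline Ntng1 (0.34 ± 0.070, adjusted p = 0.0142) rose and Npffr1 (-0.55 ± 0.14, adjusted p = 0.0370) fell. Both were lost without stressed saline replicate 2 and without SHNK replicate 2 or 3, and Npffr1 also without stressed saline replicate 3 or SHNK replicate 1.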

How the data were processed

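Bulk RNA was sequenced from 9 libraries, 3 per group, with groups taken from the labels. Per the labels, 100 ng of total RNA entered SMARTer Ultra low and TruSeq library construction. The authors deposited whole-number read counts per gene symbol, unnormalized. The submitters' processing notes name Trimmomatic 0.38, StringTie and HISAT2, and the builds GRCm38 and mm10. The sources used here do not say which tool did what, how reads were counted or whether strand was used, so reads from the opposite strand of a gene could be included. No annotated GENCODE M21 gene overlaps any of the 6 members. Each of the 18956 symbols had a count of at least 1 in every library, so a gene silent in any library is outside the table. No pair of replicates agreed within counting noise (chi-square per degree of freedom 13.4 to 31.6).

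Genes were filtered with filterByExpr (minimum count 10, minimum total 15; 762 left out), and a single quasi-likelihood model of all 9 libraries was fitted after TMM scaling (edgeR 4.0.16, R 4.3.3). P-values were adjusted by Benjamini-Hochberg over the 18194 genes tested, and 0.05 was the threshold. The common biological coefficient of variation was 0.132, so counting error weighs most on genes with few reads. Among these were Pou4f1 in SHNK and in non-stressed saline (15 to 89 reads per library), Isl1 and Irx1. Log2 CPM used a prior count of 2. Length-scaled levels cover 17243 symbols (91.0%). Promoter windows are RefSeq's, and all 6 members matched by symbol.

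The members and the 15 gene lists were chosen with earlier results of these data known. Named genes are the members, their measured relatives, the genes most like them (8 by each measure, mean log2 CPM of at least 1), and from each list those passing, at most 4 per comparison. Alternatives were DESeq2 1.42.0, limma 3.58.1 voom with quality weights, DESeq2 size factors, upper-quartile scaling, no filter, at least 1 CPM in 3 libraries, only the 2 groups compared, a replicate block, and leaving out each library. The fit was run on counts simulated from its own dispersions, with changes set for stressed against non-stressed saline only. Such counts follow the model by design, so the run says nothing about the calls above.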

Additional observations from a re-analysis of the deposited data

How the results depend on the processing

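No fold change of a called member turned its direction in any alternative. In stressed against non-stressed saline the number of members called was 3, with 5 by DESeq2, 1 by limma voom and 0 to 5 when 1 library was left out, and their median log2 fold change was 1.71, with 1.04 by limma voom and 1.22 to 1.99 when 1 library was left out. In SHNK against stressed saline the number was 3, with 5 by limma voom and 3 to 4 when 1 library was left out, and the median was -1.53, with -2.43 under a filter of 1 CPM in 3 libraries, which leaves Isl1 out, and -2.08 to -1.40 when 1 library was left out. In SHNK against non-stressed saline the number was 0, with 3 by DESeq2, 1 with only the 2 groups in the fit and 0 to 2 when 1 library was left out, and the median was -0.44, with -0.93 under that filter and -0.48 to -0.36 when 1 library was left out.

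Over all genes, stressed against non-stressed saline had 210 higher and 3 lower by edgeR, 438 and 34 by DESeq2, 101 and 1 by limma voom, and 40 and 0 without stressed saline replicate 2. SHNK against stressed saline had 446 higher and 721 lower by edgeR, 877 and 1128 by DESeq2, 980 and 1397 by limma voom, and 47 and 129 without SHNK replicate 3. SHNK against non-stressed saline had 0 higher and 1 lower by edgeR (3338 with an unadjusted p below 0.05), 331 and 663 by DESeq2, 0 and 1 by limma voom, and 153 and 596 without non-stressed saline replicate 2. Of the 12 ependymal genes, 8 rose in the first comparison (4 by limma voom) and 6 fell in the second (11 by DESeq2 and likewise by limma voom). Of 9 relatives 1 rose in the first (2 by DESeq2, 0 by limma voom). The cause of these differences was not tested.

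Replicate numbers are shared between groups, but same-numbered libraries did not deviate together: r ran from -0.100 to 0.106 over 9 pairs, with 1 above 0.1. No pairing by number was thus seen. Deviations from means of 3 libraries cannot exclude one. With the replicate number as a block, the members called were 3, 3 and 0 in the 3 comparisons above, in that order, with medians of 1.60, -1.45 and -0.44, and the calls over all genes were 176 higher and 1 lower, 311 higher and 567 lower, and 2 higher and 4 lower.

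Depth limits Pou4f1 in SHNK (9 reads in all) and Isl1 (28 to 108 reads per group), whose ranges overlapped in each comparison. With 3 libraries per group, each call rests on few values. CPM on plain totals and length-scaled values kept the order of the group means for each member.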
